A study of Mus musculus with 8 samples.

Results

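Interferon regulatory factors are transcription factors that share an N-terminal DNA-binding domain and read repeats of the bases GAAA in the promoters of interferon and interferon-stimulated genes. The 6 genes described here are Irf1, Irf2, Irf3, Irf4, Irf5 and Irf8. They were chosen by symbol, and Irf7 and Irf9 are not among them. All 6 were measured, each by the probe set with the highest mean among those that the array annotation assigns to that gene alone, and they are 6 of 19938 genes measured in this way. All 6 also passed the filter on low values that left 14953 genes for testing.

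RNA came from splenocytes, the mixed cells of a collagenase- and DNase-digested spleen, of 8 mice on a C57/B6 background, with 1 Affymetrix Mouse Gene 1.0 ST array per mouse. The groups were Sle1.3 mice haplodeficient for E2-2 (Sle1.3/E2-2het, 3 mice), Sle1.3 mice, a lupus model (3 mice), and wild-type mice (WT, 2 mice). Both Sle1.3 groups carry Sle1.3, and neither WT mouse does. E2-2 is the protein of Tcf4, a factor that plasmacytoid dendritic cells need, and the series describes those cells as non-functional in the Sle1.3/E2-2het mice. The labels give no ages. Each value is an average over all cells of the spleen, so fewer cells of a type and less RNA per cell cannot be told apart.

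Both arrays numbered 3 stood apart from the other 6. Their lowest linear intensities were 11.2 in Sle1.3/E2-2het and 10.9 in Sle1.3, against 4.57 to 5.11 elsewhere, and they are called the second array set, which holds no WT mouse. Between the second and the first set the median shift over the tested genes was 0.31 on the log2 scale in Sle1.3/E2-2het and 0.25 in Sle1.3. One label was contradicted: Sle1.3 replicate 3 is labelled male, yet Xist, which silences an X chromosome in females, had a log2 intensity of 11.90 and the Y-linked Kdm5d one of 4.19. By Xist, the Sle1.3 mice were female (10.68 to 11.90), the WT mice male (3.75 and 4.11), and the Sle1.3/E2-2het mice male in the first set (3.79 and 4.29) and female in the second (11.82). Sex and genotype therefore cannot be told apart between Sle1.3 and WT, while Sle1.3/E2-2het against WT in the first set compared males with males. The log2 level of Tcf4 in Sle1.3/E2-2het replicates 1 to 3 was 8.18, 8.13 and 9.25. It stood at 8.67, 8.63 and 9.06 in the Sle1.3 mice and at 9.02 and 8.80 in the WT pair, so only the first set showed a lower level with 1 copy lost. Cd79a of B cells (11.20 to 12.34) and Cd3e of T cells (8.85 to 10.06) were measured in all 8 arrays.

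In these cells the family has separable roles. IRF3 and IRF5 wait in the cytoplasm and are activated by phosphorylation, IRF3 by the kinase TBK1 after nucleic acid sensing and IRF5 downstream of Toll-like receptors and MyD88. IRF1 is itself induced by interferon gamma, and IRF2 binds the same DNA and can oppose it. IRF4 and IRF8 act in blood cells with partner factors such as PU.1. IRF4 drives plasma cell formation, and IRF8 is needed for some dendritic cells and supports B cell programmes. In humans, variants of IRF5 are among the best known genetic associations of systemic lupus erythematosus.

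The 250 bases before the RefSeq start sites were searched for 3 motifs on both strands. These were the repeat bound by the family (GAAA, any 2 bases, GAAA), an Ets-IRF composite (GGAA, any 2 bases, GAAA) and a STAT site (TTC, any 3 bases, GAA). They occurred in 2.98%, 2.30% and 7.02% of 32851 RefSeq promoter windows (GRCm38.p6). Irf1, Irf2 and Irf8 held at least one match, and the stretches around these are shown because they place STAT or IRF motifs beside genes whose levels are compared. Capitals mark the matches, all on the plus strand, where the genes also lie. In Irf2 the first 2 motifs overlap.
Irf1, chr11:53769898-53769958: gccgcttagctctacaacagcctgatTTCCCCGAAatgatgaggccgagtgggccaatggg
Irf2, chr8:46739495-46739555: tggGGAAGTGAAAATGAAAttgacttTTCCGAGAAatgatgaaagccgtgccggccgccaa
Irf8, chr8:120736161-120736221: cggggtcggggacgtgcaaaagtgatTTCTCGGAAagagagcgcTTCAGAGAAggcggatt
The Irf1 match lies at -90 to -82 from its start, and the Irf8 matches at -171 to -163 and -153 to -145. The windows of Irf3, Irf4 and Irf5, and a second listed window each of Irf1 and Irf8, held no match to these 3 motifs. The Irf5 window lies inside the gene, which begins at 29526130, as the second windows of Irf1 and Irf8 lie inside theirs. For Irf5 the bases before the gene's first position were therefore not searched. Its window, shown because Irf5 differed most between the genotypes, is 72% G or C, with the CpG pairs frequent in it (25 in 250 bases).
Irf5, chr6:29526375-29526624: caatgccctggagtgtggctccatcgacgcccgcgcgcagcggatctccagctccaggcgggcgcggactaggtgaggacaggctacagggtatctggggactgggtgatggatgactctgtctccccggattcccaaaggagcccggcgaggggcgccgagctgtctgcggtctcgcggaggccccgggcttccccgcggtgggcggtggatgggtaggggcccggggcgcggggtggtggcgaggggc
A match is a description of the letters, and no data on binding were analysed here.

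**Figure D1:**
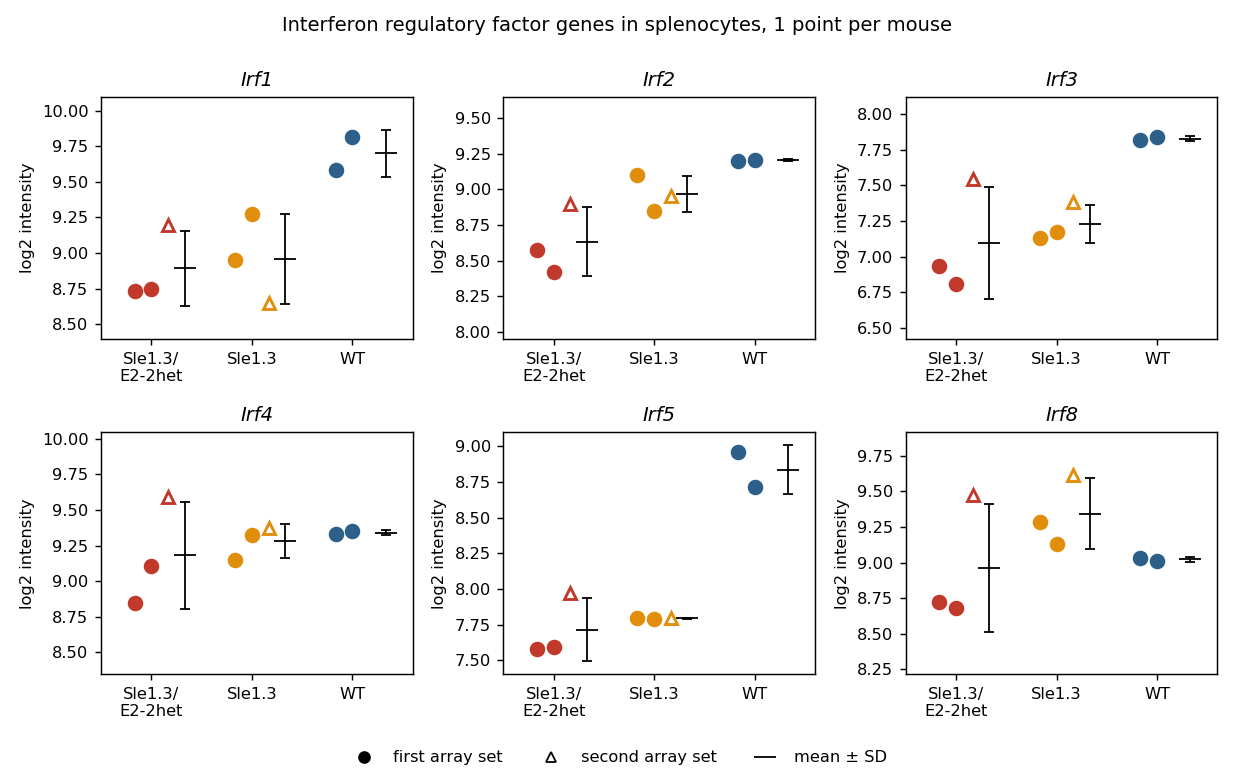
Log2 intensity of the 6 genes (1 panel each, every panel spanning 1.7 log2 units) in each mouse, by genotype, with the mean and SD of each group. Filled circles are the first array set and open triangles the second. Irf5 lies lower in all 6 mice with Sle1.3 (7.58 to 7.97) than in both WT mice (8.96 and 8.72), and most of the spread within Sle1.3/E2-2het comes from the open triangle.

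Irf5, on chromosome 6, was the only 1 of the 6 genes that passed as lower than WT in both Sle1.3 genotypes over all 8 arrays. Its log2 intensity was 7.58, 7.59 and 7.97 in Sle1.3/E2-2het mice, 7.79, 7.79 and 7.80 in Sle1.3 mice, and 8.96 and 8.72 in WT mice. The highest value with Sle1.3 lay well below the lowest WT value, and the 3 Sle1.3 mice were nearly equal although they span both array sets. In a limma fit to all 8 arrays with group as the only term, Sle1.3/E2-2het minus WT was -1.12 (SE 0.19, 95% interval -1.53 to -0.71, adjusted p = 0.00998), which is 2.18 times lower. Sle1.3 minus WT was -1.04 (SE 0.19, 95% interval -1.45 to -0.64, adjusted p = 0.0137), or 2.06 times lower.

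Ranked by signed difference from the lowest, Irf5 stood 100th of 14953 genes in Sle1.3/E2-2het minus WT and 158th in Sle1.3 minus WT. It was the only 1 of the 6 members past the threshold in either comparison, where 3.74% and 3.22% of all tested genes were called lower. Both comparisons share the WT mice. In the first array set alone the differences were -1.25 (adjusted p = 0.000911), between males, and -1.05 (adjusted p = 0.00308). The result rests on 2 WT mice: without WT replicate 1 it was -1.0 (adjusted p = 0.0995) and -0.92 (adjusted p = 0.120), without WT replicate 2 -1.24 (adjusted p = 0.133) and -1.17 (adjusted p = 0.141), and without Sle1.3 replicate 1 Sle1.3 minus WT had adjusted p = 0.0535.

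Sle1.3/E2-2het and Sle1.3 did not differ in Irf5 beyond the spread between mice (difference -0.08, SE 0.17, 95% interval -0.44 to 0.29, adjusted p = 1.00). The 10 nearest tested genes around Irf5, 5 on each side in RefSeq order, held no called gene: 0 of 10 passed the limma test in any comparison, and their median difference was 0.11 in Sle1.3/E2-2het minus WT and 0.14 in Sle1.3 minus WT. The neighbour with the smallest p was Tspan33, a tetraspanin gene (0.76, SE 0.25, adjusted p = 0.0819, Sle1.3/E2-2het minus WT), and in Sle1.3 minus WT it was Ahcyl2 (-0.35, SE 0.19, adjusted p = 0.301). In the first set alone 1 neighbour was higher and 1 lower in Sle1.3/E2-2het minus WT. Over all 14953 tested genes the first-set fit called 1581 higher and 3505 lower in that comparison. In Sle1.3 minus WT it called 772 higher and 1595 lower. First-set neighbour counts of the members below stand beside the same totals.

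Irf3, on chromosome 7, lay lower in each mouse with Sle1.3 than in either WT mouse. Its log2 intensity was 6.93, 6.81 and 7.55 in Sle1.3/E2-2het mice, 7.13, 7.17 and 7.38 in Sle1.3 mice, and 7.82 and 7.84 in WT mice. The groups did not overlap with WT, and the 2 second-set mice were the nearest to it. Over all 8 arrays the difference was -0.73 (SE 0.23, adjusted p = 0.0685) for Sle1.3/E2-2het minus WT and -0.60 (SE 0.23, adjusted p = 0.141) for Sle1.3 minus WT, and neither passed. Within the first array set Irf3 fell in both, by -0.96 (SE 0.15, adjusted p = 0.00206) and -0.67 (SE 0.15, adjusted p = 0.0139). Of its 10 nearest tested genes 0 passed the limma test over all arrays in either comparison with WT, with medians of -0.16 and -0.07, and in the first set 4 were lower and 1 higher in Sle1.3/E2-2het minus WT and 1 lower in Sle1.3 minus WT. The first-set shares of all genes called lower were 23.4% in Sle1.3/E2-2het minus WT and 10.7% in Sle1.3 minus WT. The neighbour with the smallest p was Tsks in the first of these comparisons (0.62, SE 0.22, adjusted p = 0.0945) and Mir150 in the second (0.48, SE 0.20, adjusted p = 0.177).

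Irf1, on chromosome 11, had its highest values in the WT mice. Its log2 intensity was 8.73, 8.75 and 9.20 in Sle1.3/E2-2het mice, 8.95, 9.28 and 8.65 in Sle1.3 mice, and 9.58 and 9.82 in WT mice. The groups with Sle1.3 did not overlap with WT, and within Sle1.3 the second-set mouse was the lowest, opposite to its place in Sle1.3/E2-2het. The differences were -0.81 (SE 0.23, adjusted p = 0.0554) for Sle1.3/E2-2het minus WT and -0.74 (SE 0.23, adjusted p = 0.0813) for Sle1.3 minus WT over all arrays. In the first set they were -0.96 (SE 0.17, adjusted p = 0.00333) and -0.59 (SE 0.17, adjusted p = 0.0383).

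A second probe set, annotated to Irf1 through 1 accession only, did not follow the first. It read 6.25, 6.35 and 6.73 in Sle1.3/E2-2het mice, 6.32, 6.26 and 6.67 in Sle1.3 mice and 6.12 and 6.35 in WT mice, with the highest values in the second array set. With the mean of both probe sets in place of the brighter one, Irf1 was at -0.30 (adjusted p = 0.311) and -0.28 (adjusted p = 0.404). Among the 10 nearest tested genes of Irf1 0 passed over all arrays in limma, and 1 was lower in the first set in Sle1.3/E2-2het minus WT. The smallest p among them belonged to Slc22a5, a carnitine transporter gene (-0.50, SE 0.22, adjusted p = 0.157, in Sle1.3/E2-2het minus WT, and -0.35, SE 0.22, adjusted p = 0.360, in Sle1.3 minus WT).

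Irf2, on chromosome 8, had its lowest values in the first-set Sle1.3/E2-2het mice. Its log2 intensity was 8.58, 8.42 and 8.90 in Sle1.3/E2-2het mice, 9.10, 8.84 and 8.95 in Sle1.3 mice, and 9.20 and 9.21 in WT mice. All 6 mice with Sle1.3 lay below WT, some Sle1.3 mice by little. Sle1.3/E2-2het minus WT was -0.57 (SE 0.19, adjusted p = 0.0837) over all arrays. Irf2 fell in the first set (-0.70, SE 0.16, adjusted p = 0.00866). Sle1.3 minus WT was -0.24 (SE 0.19, 95% interval -0.66 to 0.18, adjusted p = 0.465), and -0.23 (adjusted p = 0.345) in the first set. Of its 10 nearest tested genes 0 passed in limma over all arrays, with Snx25 having the smallest p (-0.49, SE 0.18, adjusted p = 0.108, in Sle1.3/E2-2het minus WT, and -0.39, SE 0.18, adjusted p = 0.218, in Sle1.3 minus WT), and in the first set 3 were lower in Sle1.3/E2-2het minus WT, where 23.4% of all genes were.

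Irf4, on chromosome 13, showed no difference from WT that passed in any of these fits. Its log2 intensity was 8.85, 9.11 and 9.59 in Sle1.3/E2-2het mice, 9.15, 9.33 and 9.38 in Sle1.3 mice, and 9.33 and 9.35 in WT mice. The Sle1.3/E2-2het values spanned the others, with the second-set mouse the highest of all 8. Sle1.3/E2-2het minus WT was -0.16 (SE 0.22, 95% interval -0.64 to 0.32, adjusted p = 0.632) and Sle1.3 minus WT -0.06 (SE 0.22, 95% interval -0.54 to 0.43, adjusted p = 0.892). In the first set Sle1.3/E2-2het minus WT was -0.36 (SE 0.16, adjusted p = 0.0948). Of its 10 nearest tested genes 0 passed in limma over all arrays, and the smallest p belonged to Agtr1a, an angiotensin receptor gene (0.76, SE 0.22, adjusted p = 0.0547, in Sle1.3/E2-2het minus WT), and to Foxq1 in Sle1.3 minus WT (0.28, SE 0.19, adjusted p = 0.374). Within the first set 1 was higher and 2 lower in Sle1.3/E2-2het minus WT.

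Irf8, also on chromosome 8, was the one member whose level in Sle1.3 mice was above WT. Its log2 intensity was 8.72, 8.68 and 9.48 in Sle1.3/E2-2het mice, 9.28, 9.13 and 9.62 in Sle1.3 mice, and 9.03 and 9.01 in WT mice. Sle1.3 did not overlap with WT, while Sle1.3/E2-2het lay below WT in the first set and above it in the second. Neither difference passed: Sle1.3/E2-2het minus WT was -0.06 (SE 0.25, 95% interval -0.62 to 0.50, adjusted p = 0.886) and Sle1.3 minus WT 0.32 (SE 0.25, 95% interval -0.23 to 0.88, adjusted p = 0.456). In the first set they were -0.32 (SE 0.15, adjusted p = 0.113) and 0.19 (SE 0.15, adjusted p = 0.419). One of its 10 nearest tested genes, Gm10614, a predicted gene, rose over all arrays (0.75, SE 0.17, adjusted p = 0.0297 in Sle1.3/E2-2het minus WT, and 0.82, SE 0.17, adjusted p = 0.0215 in Sle1.3 minus WT). Of the 10, 2 in the first set were higher in Sle1.3/E2-2het minus WT and 1 in Sle1.3 minus WT.

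**Figure D2:**
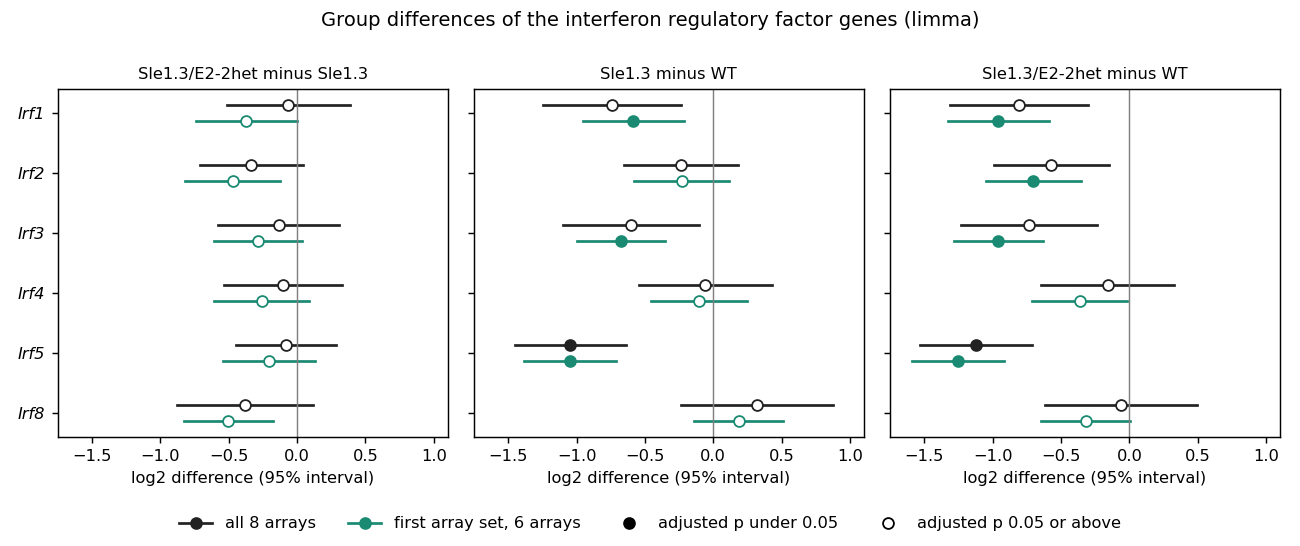
Log2 differences of the 6 genes with 95% intervals in the 3 comparisons, from all 8 arrays (black) and from the 6 arrays of the first set (green). Filled points have an adjusted p under 0.05. Over all arrays only Irf5 is filled, at -1.12 in Sle1.3/E2-2het minus WT and -1.04 in Sle1.3 minus WT, and in the first set Irf1 and Irf3 join it in both comparisons with WT and Irf2 in Sle1.3/E2-2het minus WT.

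The members' median lay below that of all genes in both comparisons with WT. The median of the 6 was -0.65 in Sle1.3/E2-2het minus WT, beside -0.0059 over all genes tested, and -0.42 in Sle1.3 minus WT, beside 0.03. All 6 are among the 9969 genes above the median level, whose median differences were themselves lower, at -0.19 and -0.11. The log2 values also spread more widely in the WT arrays, with interquartile ranges of 2.77 and 2.97, against 2.41 to 2.57 elsewhere. Among the members 4 of 6 were lower in every Sle1.3/E2-2het mouse than in both WT mice, a pattern of Sle1.3/E2-2het minus WT shown by 23.2% of all genes, and in Sle1.3 minus WT 4 of 6 were, against 24.4% of all genes, with 1 member higher, against 21.5%. In the first set limma called 4 of 6 lower in Sle1.3/E2-2het minus WT, against 23.4% of all genes, and 3 of 6 in Sle1.3 minus WT, against 10.7%. Such counts over 6 genes are a description of the members. The scale mattered: with each array centred on its median, the median difference over all genes was -0.19 in Sle1.3/E2-2het minus WT and -0.12 in Sle1.3 minus WT. Irf1, Irf3 and Irf5 then passed as lower in both, where 23.3% and 13.6% of all genes did, and Irf2 did in Sle1.3/E2-2het minus WT. With quantile normalization Irf5 alone of the 6 passed, at -0.86 (adjusted p = 0.0185) and -0.87 (adjusted p = 0.0157), where 2.11% and 2.34% of all genes were called lower, and Irf2 in Sle1.3/E2-2het minus WT was at -0.29 (adjusted p = 0.234). On that scale Irf4 and Irf8 were above 0 in Sle1.3/E2-2het minus WT, at 0.10 (adjusted p = 0.742) and 0.21 (adjusted p = 0.475), and so was Irf4 in Sle1.3 minus WT, at 0.13 (adjusted p = 0.683).

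The loss of 1 E2-2 copy was read from Sle1.3/E2-2het minus Sle1.3, where 0 of 6 members passed over all arrays in limma, with 0 of 6 at an unadjusted p under 0.05 (625 of 14953 genes in either direction), while 0.0134% of all genes were called lower. Irf8 and Irf2 had the lowest differences, -0.38 (SE 0.23, 95% interval -0.88 to 0.12, adjusted p = 1.00) and -0.33 (SE 0.17, 95% interval -0.71 to 0.04, adjusted p = 1.00). For Irf1, Irf3, Irf4 and Irf5 the differences lay between -0.13 and -0.07, and the lowest and highest bounds of their 95% intervals were -0.58 and 0.38.

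Same-numbered mice deviated from their group means together, although no title states a pairing, so pairs were also read one by one. Irf8 was lower in the Sle1.3/E2-2het mouse of each pair, by -0.56, -0.45 and -0.14 in pairs 1, 2 and 3. Irf2 was lower in each pair as well, by -0.52, -0.42 and -0.06. These 2 of 6 members stood beside 19.3% of all genes that were lower in 3 of 3 pairs. With the replicate number as a block Irf8 had adjusted p = 0.176 and Irf2 adjusted p = 0.272, in a fit that called 262 genes where the unblocked fit called 2, and 1.20% of all genes lower.

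For the other 4 members the pairs pointed apart. Irf1 was at -0.22 and -0.53 in pairs 1 and 2 and at 0.55 in pair 3. Irf3 was at -0.20, -0.37 and 0.16, Irf4 at -0.30, -0.22 and 0.21, and Irf5 at -0.21, -0.20 and 0.17. All 6 members were thus lower in both first-set pairs, where males were set against females, and 4 of 6 were higher in the second-set pair, a female set against a female. The shares of all genes with these patterns were not counted, so neither count sets the members apart. The median over the members was -0.26, -0.39 and 0.17 in the 3 pairs, while that of all genes was -0.0006, -0.03 and 0. In the first set every Sle1.3/E2-2het mouse lay below every Sle1.3 mouse for 6 of 6 members, a pattern that 25.3% of all genes showed. None of the 6 passed the first-set limma test there, where 0.388% of all genes were called lower (smallest adjusted p = 0.237, for Irf8), with 3 of 6 lower at an unadjusted p under 0.05, which 1649 of 14953 genes reached in either direction. The difference between the sets was not tested, and sex, array set and pair cannot be told apart in it.

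**Figure D3:**
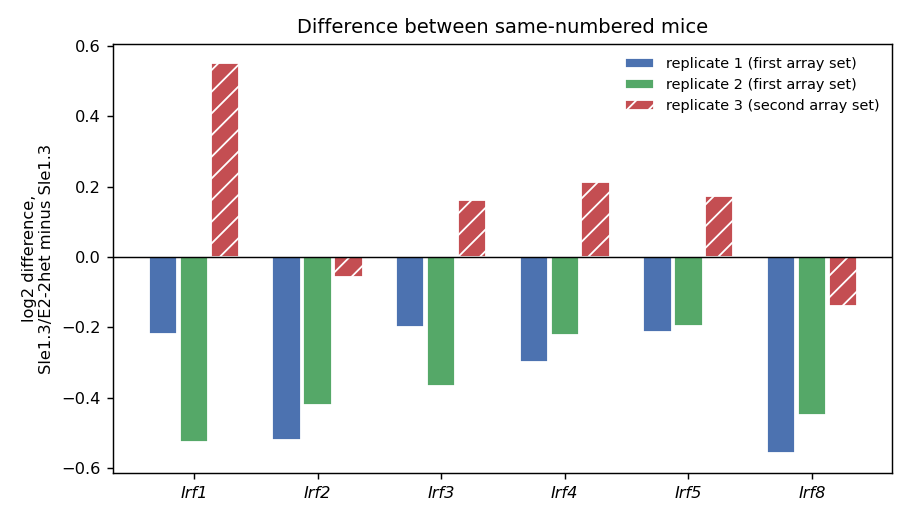
Log2 difference of each gene between the Sle1.3/E2-2het and the Sle1.3 mouse of the same number. Bars below 0 mean a lower level in the Sle1.3/E2-2het mouse. Irf2 and Irf8 are below 0 in all 3 pairs, and Irf1, Irf3, Irf4 and Irf5 are above 0 in pair 3 of the second array set.

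Second-set mice carried higher levels of every member in Sle1.3/E2-2het, by 0.38 (Irf5) to 0.77 (Irf8), where the median over all genes was 0.31. In Sle1.3 the same step ran from -0.47 (Irf1) to 0.41 (Irf8), with Irf2 at -0.02 and Irf5 at 0.0061, where the median over all genes was 0.25. With the array set as a block, limma called Irf1, Irf2, Irf3 and Irf5 lower in Sle1.3/E2-2het minus WT, where 23.4% of all genes were called lower, and Irf1, Irf3 and Irf5 in Sle1.3 minus WT, where 16.5% were. In that fit Irf3 was at -0.88 (adjusted p = 0.00218) and -0.75 (adjusted p = 0.00537), Irf1 at -0.80 (adjusted p = 0.0142) and -0.74 (adjusted p = 0.0259), and Irf2 at -0.63 (adjusted p = 0.0108) and -0.30 (adjusted p = 0.180).

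The genes whose profiles over the 8 arrays were most like each member were found by the root mean square difference between log2 values centred on each gene's own mean. For Irf5 these were Ttpal (0.06), B3gnt5 (0.07) and Abtb2 (0.08), where the root mean square of Irf5 itself was 0.49. The choice by profile fixes that the differences of these 3 lay near those of Irf5. They were -1.13, -1.05 and -1.05 in Sle1.3/E2-2het minus WT and -1.07, -0.95 and -1.0 in Sle1.3 minus WT. For Irf3 they were N4bp1 (0.05), Nfat5 (0.05) and Sbf1 (0.06), against 0.36 for Irf3 itself. For Irf1 they were Rcl1 (0.06), Prpf3 (0.09) and Ulk2 (0.09), against 0.40. For Irf2 they were Smarcc1 (0.06), Fbxw11 (0.07) and Nup210 (0.07), against 0.26. For Irf4 they were Cyb561a3 (0.05), Nipsnap1 (0.06) and Slc50a1 (0.07), against 0.21. For Irf8 they were Stk39 (0.06), Gm1966 (0.07) and Kcna3 (0.08), against 0.31. Among the 6 members Irf2 and Irf3 were each other's nearest member (0.19), as were Irf4 and Irf8 (0.22), and the nearest to Irf5 was Irf3 (0.22). The 8 arrays share 3 genotypes and 2 array sets, so they are not independent points.

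Several cell type markers moved with the groups in which Irf1, Irf3 and Irf5 were lower. Counts of markers past the limma test stand beside 559 lower and 517 higher of all 14953 genes in Sle1.3/E2-2het minus WT. In Sle1.3 minus WT they stand beside 481 lower and 398 higher. The summed linear intensity of 10 measured markers of plasmacytoid dendritic cells was 2992 to 4638 in Sle1.3/E2-2het, 3047 to 3702 in Sle1.3 and 4797 to 5100 in WT, with 2 of 10 lower in Sle1.3/E2-2het minus WT and 3 of 10 in Sle1.3 minus WT. A linear sum is weighted toward the brightest markers, and this one includes Spib and Tcf4. By sign alone, 6 of the 10 were lower and 4 higher in Sle1.3/E2-2het minus WT (median -0.14). In Sle1.3 minus WT 5 were lower and 5 higher (median -0.05). For 8 B cell markers it was 10429 to 15382, 11665 to 13713 and 13348 to 16200, with 0 and 1 lower. Neutrophil and precursor markers ran the other way, at 9067 to 25674, 8507 to 28264 and 1926 to 2933, with 10 and 11 of 11 higher. Monocyte markers summed to 1317 to 1709, 1464 to 2637 and 858 to 1243, with 0 and 3 of 7 higher, and splenic macrophage markers to 2821 to 4604, 2443 to 3394 and 1343 to 2038, with 7 and 2 of 9 higher. Natural killer cell markers summed to 1451 to 2203 in Sle1.3/E2-2het, 1112 to 1375 in Sle1.3 and 2082 to 2420 in WT, with 2 lower and 1 higher of 8 in Sle1.3/E2-2het minus WT and 3 lower in Sle1.3 minus WT. T cell markers summed to 2601 to 4217, 3085 to 3863 and 4114 to 4470 in these groups, with 0 and 1 of 8 lower. Erythroid markers summed to 1283 to 2487, 546 to 772 and 627 to 636, with 4 and 0 of 6 higher. The part of these cell mixtures in the levels of the Irf genes was not tested. The 9 measured markers of conventional dendritic cells summed to 1076 to 1232 in Sle1.3/E2-2het, 908 to 1020 in Sle1.3 and 1042 to 1525 in WT. The Sle1.3 mice lay below both other groups, which overlapped. Of 8 tested markers 0 passed in limma in Sle1.3/E2-2het minus WT and 1 was lower in Sle1.3 minus WT. In the former 1 was lower at an unadjusted p under 0.05, which 4356 of 14953 genes reached in either direction.

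Counts of list genes at an unadjusted p under 0.05 stand beside those of all 14953 tested genes in either direction. These were 625 in Sle1.3/E2-2het minus Sle1.3, 3461 in Sle1.3 minus WT and 4356 in Sle1.3/E2-2het minus WT. Past the limma threshold were 2, 879 and 1076 of all tested genes in the same order. Upstream of Irf1, the list holds genes of interferon receptor signalling. Of its 10 tested genes 4 fell and 0 rose in Sle1.3/E2-2het minus WT, with a median of -0.53, and 4 fell and 0 rose in Sle1.3 minus WT, with a median of -0.51. They included Jak2, the kinase paired with the interferon gamma receptor (-0.98, SE 0.20, adjusted p = 0.0201, in Sle1.3/E2-2het minus WT), and Stat3 (-0.94, SE 0.19, adjusted p = 0.0215). In Sle1.3 minus WT the lowest were Ifngr2, a chain of the interferon gamma receptor (-1.26, SE 0.21, adjusted p = 0.00989), and Ifnar1, a chain of the type I interferon receptor (-1.02, SE 0.18, adjusted p = 0.0140). In the comparison of the 2 Sle1.3 genotypes none of the 10 passed in limma, with 2 higher at an unadjusted p under 0.05, and Ifngr2 had the smallest p (0.49, SE 0.18, adjusted p = 0.940).

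Upstream of Irf3 and Irf5, 2 of 20 tested sensors, adaptors and kinases fell in Sle1.3/E2-2het minus WT, where the list median was -0.24. These were Tlr9, the endosomal receptor for DNA (-1.06, SE 0.27, adjusted p = 0.0411), and Traf6, a ubiquitin ligase below MyD88 (-0.84, SE 0.19, adjusted p = 0.0298). In Sle1.3 minus WT 0 of 20 passed in limma, with 5 genes down and 2 up at an unadjusted p under 0.05. Of all 14953 genes 3461 reached that in either direction. Traf6 had the smallest p of the 20 there (-0.73, SE 0.19, adjusted p = 0.0509). Among the same 20 limma called 0 in Sle1.3/E2-2het minus Sle1.3, with 1 lower at an unadjusted p under 0.05, Ifih1, which detects viral RNA (-0.40, SE 0.18, adjusted p = 1.00). Among 10 tested genes for proteins that bind or restrain these factors, Irf2bpl, a relative of the IRF2-binding proteins, fell alone, by -1.04 (SE 0.20, adjusted p = 0.0175) in Sle1.3/E2-2het minus WT and by -1.05 (SE 0.20, adjusted p = 0.0165) in Sle1.3 minus WT. None passed in limma in Sle1.3/E2-2het minus Sle1.3, nor at an unadjusted p under 0.05, and Usp18 had the smallest p (-0.36, SE 0.18, adjusted p = 1.00).

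Of 12 tested partner factors Spib, the Ets factor that joins IRF4 and IRF8 on DNA, fell in both comparisons with WT and was the only one to pass. It averaged 8.90 ± 0.32 in Sle1.3/E2-2het (SD, n = 3), 9.08 ± 0.05 in Sle1.3 (SD, n = 3) and 10.63 ± 0.32 in WT (SD, n = 2), with differences of -1.73 (SE 0.22, adjusted p = 0.00489) and -1.55 (SE 0.22, adjusted p = 0.00758) by limma. Of these partners 0 of 12 passed in limma in Sle1.3/E2-2het minus Sle1.3, with 2 lower at an unadjusted p under 0.05. Jun, an AP-1 subunit, had the smallest p there (-0.86, SE 0.19, adjusted p = 0.264), and blocking on replicate number gave adjusted p = 0.00908, with 1 of 12 lower.

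Downstream of IRF1, 2 of 16 tested genes fell in Sle1.3/E2-2het minus WT, Tap1, a peptide transporter for MHC class I (-0.90, SE 0.24, adjusted p = 0.0475), and the chemokine gene Cxcl10 (-0.88, SE 0.24, adjusted p = 0.0495). Of the same list 0 of 16 passed in Sle1.3 minus WT in limma, with 1 gene up and 1 down at an unadjusted p under 0.05, and Psmb9, an immunoproteasome subunit, had the smallest p (0.69, SE 0.25, adjusted p = 0.124). In Sle1.3/E2-2het minus Sle1.3 the median of the list was -0.37, beside 0.0017 over all genes. There 0 of 16 passed in limma and 6 were lower at an unadjusted p under 0.05, with Tap1 having the smallest p (-0.70, SE 0.21, adjusted p = 0.621), and blocking on replicate number gave adjusted p = 0.0231 and 4 of 16 genes lower.

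Genes known to be induced by IRF3 had list medians of 0.34 in Sle1.3/E2-2het minus WT and 0.48 in Sle1.3 minus WT. None of the 8 tested passed in limma in either comparison, with 3 genes up and 1 down at an unadjusted p under 0.05 in each. Over all 14953 genes, 4356 and 3461 reached that in either direction. Rsad2, an antiviral enzyme, had the smallest p in the first (1.68, SE 0.49, adjusted p = 0.0585), and the chemokine gene Ccl5 in the second (-0.75, SE 0.23, adjusted p = 0.0771). Their median in Sle1.3/E2-2het minus Sle1.3 was 0.03, 0 of 8 passed in limma and 1 was lower at an unadjusted p under 0.05, Ifit1, an RNA-binding antiviral protein gene (-0.48, SE 0.20, adjusted p = 1.00). Of 7 cytokine genes known as IRF5 targets 0 passed in any of the 3 comparisons in limma, with list medians of 0.07, -0.22 and -0.15 in Sle1.3/E2-2het minus Sle1.3, Sle1.3 minus WT and Sle1.3/E2-2het minus WT. At an unadjusted p under 0.05 1 was higher, 1 lower and 0 differed in these comparisons. The smallest p belonged to Il1b in the first (0.67, SE 0.29, adjusted p = 1.00) and to Il12a, a subunit of interleukin-12, in the others (-0.61, SE 0.24, adjusted p = 0.160, and -0.48, SE 0.24, adjusted p = 0.205).

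Germinal centre and plasma cell programmes use IRF4 and IRF8. Gcsam, an adaptor that limits movement of germinal centre lymphocytes, was 6.23 ± 0.11 in Sle1.3/E2-2het, against 7.89 ± 0.42 in Sle1.3 (SD, n = 3 each), and fell (-1.65, SE 0.21, adjusted p = 0.0432), 1 of 9 tested germinal centre genes in limma, with 7 lower at an unadjusted p under 0.05 and a list median of -0.65. With the replicate number as a block 6 of 9 were lower past the test. Gcsam was 1 of only 2 genes called over all arrays in Sle1.3/E2-2het minus Sle1.3. Over the alternatives the number called there ran from 0, as with labelled sex or without either WT mouse, to 262 with the replicate block. In Sle1.3 minus WT 3 of 9 rose, among them Gcsam (1.61, SE 0.23, adjusted p = 0.00758) and Mybl1, a transcription factor of dividing germinal centre cells (1.35, SE 0.35, adjusted p = 0.0455). In Sle1.3/E2-2het minus WT 0 of 9 passed in limma and 4 were lower at an unadjusted p under 0.05. Of all 14953 genes 4356 reached that in either direction. Bcl6, the repressor that defines these cells, was at -0.66 (SE 0.19, adjusted p = 0.0582). The summed intensity of 5 measured germinal centre markers, all 5 of them also in this list, was 564 to 634 in Sle1.3/E2-2het, 975 to 1485 in Sle1.3 and 805 to 854 in WT, and that of 7 markers of dividing cells was 1892 to 2652, 2484 to 4038 and 1150 to 1224. Their part in these differences was not tested.

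Of 12 plasma cell genes 0 passed in Sle1.3/E2-2het minus Sle1.3 in limma, with 6 genes down and 1 up at an unadjusted p under 0.05 and a median of -0.49. Mzb1, a chaperone of antibody assembly, had the smallest p (-0.90, SE 0.19, adjusted p = 0.243), and adjusted p = 0.00908 came from blocking on replicate number, which called 4 of 12 lower. Mzb1 rose in Sle1.3 minus WT (1.03, SE 0.21, adjusted p = 0.0214), and Ell2, an elongation factor of plasma cells, fell (-0.87, SE 0.20, adjusted p = 0.0336), 1 gene each way. In Sle1.3/E2-2het minus WT Ell2 fell alone (-0.77, SE 0.20, adjusted p = 0.0469). The summed intensity of 7 plasma cell markers was 6176 to 7782 in Sle1.3/E2-2het, 6523 to 8669 in Sle1.3 and 4903 to 5749 in WT, and its part was not tested. The 14 tested genes of the IRF8 programme of myeloid and dendritic cells had medians between -0.08 and 0.05, and 0 of 14 passed in any comparison in limma. At an unadjusted p under 0.05 there were 0, 2 and 2 genes in Sle1.3/E2-2het minus Sle1.3, Sle1.3 minus WT and Sle1.3/E2-2het minus WT. Over all 14953 genes there were 625, 3461 and 4356. The smallest p in these comparisons belonged to Itgax, the integrin CD11c (-0.41, SE 0.19, adjusted p = 1.00), Cybb, a subunit of the phagocyte oxidase (0.63, SE 0.19, adjusted p = 0.0729), and Zbtb46, a factor of conventional dendritic cells (-0.61, SE 0.22, adjusted p = 0.109).

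**Figure D4:**
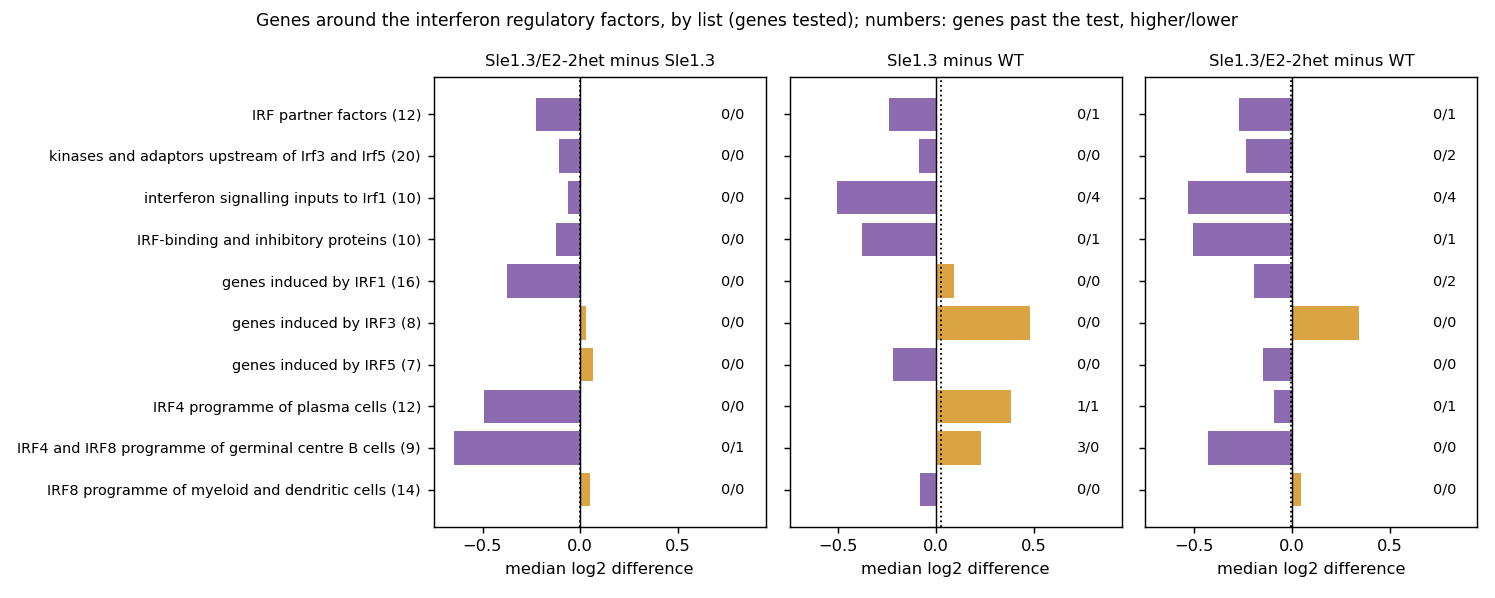
Median log2 difference (bars) of 10 lists of genes around the interferon regulatory factors in the 3 comparisons, with the number of genes tested in each list in parentheses and, at the right of each bar, how many passed the test as higher and as lower. The dotted line is the median of all genes tested. The interferon signalling list (inputs to Irf1) lies at -0.53 in Sle1.3/E2-2het minus WT and -0.51 in Sle1.3 minus WT, and the germinal centre list at -0.65 in Sle1.3/E2-2het minus Sle1.3.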

How the data were processed

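The deposited table holds 35556 probe sets for 8 arrays, and the authors left its values as intensities without a log. The submitters' processing notes name RMA and Affymetrix Expression Console, while versions, roles and genome build are not given in the sources used here. Deposited intensities were put on the log2 scale for all tests. Of the probe sets, 21789 had 1 gene symbol, 1621 several and 12146 none, and the last 2 kinds were left out. Where a gene had several probe sets the brightest on average was kept, and 14953 genes above the 25th percentile of mean log2 intensity (5.01) were tested.

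The fits used limma 3.58.1 under R 4.3.3, with lmFit, eBayes and group as the only term over all 8 arrays, which leaves 5 residual degrees of freedom. Tests were two-sided, p values were adjusted by the Benjamini-Hochberg method over all tested genes, and the threshold was 0.05. The script was tested on simulated data. Without detection calls, a level near background cannot be told from one above it, and precision is set by how few arrays there are. Mice, not cultures, are the replicates, and 18 alternatives were run. Across genes, deviations of mice with the same number in the 2 Sle1.3 groups correlated at 0.573, 0.369 and 0.618. Titles give the numbers but state no pairing, so the pairs were chosen from these same values. The third pair also shares the second array set. Blocked calls are therefore not independent support. For Sle1.3/E2-2het minus Sle1.3 the replicate block is printed beside lists whose calls it changes. The block also grouped the 2 WT mice by number, though their deviations correlated with those of same-numbered mice at only -0.08 to 0.21. Replicate-blocked values against WT depend on that grouping.

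The members, lists and rules were chosen with earlier results of these data known. Named genes are the members, the 3 genes most like each, the neighbour with the smallest p in each comparison with WT, for each list up to 2 genes past the threshold or else the one with the smallest p, and Tcf4, Xist and Kdm5d. Cd79a and Cd3e lie outside this rule and were added to check the tissue. Promoters are RefSeq's (GRCm38.p6).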

Additional observations from a re-analysis of the deposited data

How the results depend on the processing

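Over the 18 alternatives Irf5 kept its direction against WT in all, between -1.31 and -0.86 in Sle1.3/E2-2het (past the test in 16) and between -1.19 and -0.87 in Sle1.3 (past it in 15). The direction of Irf1, Irf2 and Irf3 against WT, and of Irf2 and Irf8 in Sle1.3/E2-2het minus Sle1.3, also held in all 18. Signs turned only where the reported difference was near 0. In Sle1.3/E2-2het minus Sle1.3, Irf1 was 0.089 with labelled sex and 0.034 with quantile normalization, and -0.22 to 0.094 on leaving out 1 mouse. There Irf3 was -0.36 to 0.0098 and Irf4 -0.31 to 0.064 on leaving out 1 mouse, and Irf5 was 0.0083 with quantile normalization. In Sle1.3 minus WT, Irf4 was 0.13 with quantile normalization and -0.10 to 0.011 on leaving out 1 mouse. In Sle1.3/E2-2het minus WT, Irf4 was 0.10 and Irf8 0.21 with quantile normalization, and they were -0.36 to 0.0069 and -0.32 to 0.079 on leaving out 1 mouse.

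Numbers of genes past the threshold moved widely, here in the order Sle1.3/E2-2het minus Sle1.3, Sle1.3 minus WT and Sle1.3/E2-2het minus WT, from 2, 879 and 1076. They were 0, 199 and 492 with labelled sex, 262, 4410 and 6008 with the replicate block, 92, 3585 and 5092 when blocking on array set, 79, 2367 and 5086 in the first set alone, 26, 2652 and 4250 with median centring, and 0, 538 and 619 with no filter. The fit with labelled sex kept the male label of Sle1.3 replicate 3, which Xist contradicts, so it does not adjust for sex by Xist. For the first comparison quantile normalization gave 19 and a filter at the median level 13. Quantile normalization gave 422 higher and 350 lower in the second, against 398 and 481, and 446 and 316 in the third, against 517 and 559, while median centring gave 612 and 2040, and 761 and 3489. Leaving out 1 mouse gave 0 to 78, 2 to 1658 and 5 to 2583. Both WT omissions gave the lowest counts against WT, and omitting Sle1.3/E2-2het replicate 3 the highest. The causes were not tested. The replicate block changed no member's call in Sle1.3/E2-2het minus Sle1.3. The block also grouped WT mice by number, and the limma values against WT depend on that. Under it Irf1 had adjusted p = 0.00761 in Sle1.3/E2-2het and 0.0145 in Sle1.3, Irf3 had 0.00109 and 0.00320, and Irf2 had 0.00614 and 0.149. Irf1 and Irf3 thus passed in both and Irf2 in Sle1.3/E2-2het.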
